A study of Mus musculus with 9 samples.

Results

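Mouse bone marrow-derived macrophages that had been kept in melanoma-conditioned medium were compared with and without a glucocorticoid plus interleukin 4. The comparison used 6 of the 9 arrays of the series, chosen by their titles. The first group, here the combination, had 3 arrays of cells given medium conditioned by B16F1, a mouse melanoma line, together with the synthetic glucocorticoid dexamethasone (5e-07 M) and interleukin 4 (IL-4, 10 ng/ml), a group written cmB16F1+dexa+IL4. The second had 3 arrays of cells given the conditioned medium with neither agent (cmB16F1). The other 3 arrays, of cells given dexamethasone and IL-4 in fresh medium (dexa+IL4), are used for the estimate of the spread between arrays and are shown beside the named sets. All 9 cultures came from tibias and femurs of C57BL/6 mice whose age and sex the labels do not give, and all received 30 ng/ml of macrophage colony-stimulating factor (M-CSF), stimulation from day 4 and harvest 3 days later. Dexamethasone and IL-4 were always given together, so their separate shares cannot be told apart. Arrays carry replicate numbers 1 to 3 in every group, but the labels name no animals or cultures, so p-values measure the spread between these arrays, which may be technical.

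Dexamethasone binds the glucocorticoid receptor, which moves to the nucleus, activates genes at its own binding sites and restrains inflammatory transcription. IL-4 signals through its receptor and the Janus kinases to STAT6, which switches macrophages to the alternatively activated state known from parasite infection, wound repair and tumours. Tumour cells release many factors into their medium that also act on macrophages. Macrophages recycle iron, and the transferrin receptor at their surface brings in transferrin-bound iron.

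Each array measured 17810 UniGene clusters, groups of transcript sequences held to come from one gene, and 19 control sets for mouse transcripts. The values are on the log2 scale, where a difference of 1 is 2-fold. None of the clusters could be tied to a gene name with the tables used here, since the one UniGene number in the gene table was not on the array. The genes named below are therefore the transcripts of the mouse control sets, as the set names give them. The level of Ms4a8a, the CD20 relative in the series title, is not reported, and macrophage markers were not checked. Bacterial poly-A control sets mark the low end of the scale: the highest on any array was 7.00. The highest value of any cluster or mouse control set kept was 14.2, taken here as the upper end. The level at which a set stops responding was not measured.

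The combination held more transferrin receptor RNA and less Gapdh RNA than conditioned medium alone. Transferrin receptor rose 2.85-fold at its 3' set, from a level little above the bacterial controls. Gapdh, the glycolytic enzyme, was 1.22-fold lower by its 3' set and 1.26-fold lower by the middle one. RNA of beta-actin, a cytoskeletal protein, was lower by its 3' set, near the top of the scale and by a call that 3 of 19 alternatives ended. Its 5' and middle sets did not pass. Both did in a 6-array model that held the replicate number as a block. Pyruvate carboxylase, a mitochondrial enzyme that makes oxaloacetate, did not pass at any of its 4 sets, and neither did 18S ribosomal RNA at any of its 3. The arrays measured RNA pooled over a culture, so a change in RNA per cell and a change in the mix of cells cannot be told apart.

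Promoters are shown for Tfrc and Gapdh, which moved in opposite directions, because the agents added here act through transcription factors with known DNA motifs. They are the 250 bases before the start of transcription in RefSeq, build GRCm38.p6, read 5′ to 3′ along the gene. Tfrc, the transferrin receptor gene, lies on the plus strand (chr16:32608646-32608895). Gapdh lies on the minus strand (chr6:125165774-125166023). Capitals mark a match to AGAACA, the core hexamer of the glucocorticoid receptor motif, on either strand.
Tfrc: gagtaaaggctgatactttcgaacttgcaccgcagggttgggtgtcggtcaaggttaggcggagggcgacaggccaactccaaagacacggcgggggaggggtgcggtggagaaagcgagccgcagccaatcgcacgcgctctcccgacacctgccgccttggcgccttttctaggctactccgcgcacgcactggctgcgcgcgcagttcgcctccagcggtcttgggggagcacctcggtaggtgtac
Gapdh: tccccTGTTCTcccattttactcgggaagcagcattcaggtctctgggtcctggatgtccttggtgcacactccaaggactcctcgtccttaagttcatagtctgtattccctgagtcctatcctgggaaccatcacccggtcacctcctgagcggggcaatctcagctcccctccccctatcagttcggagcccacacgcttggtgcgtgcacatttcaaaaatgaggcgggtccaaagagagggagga

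The Gapdh window held 1 such hexamer and the Tfrc window held none. The hexamer occurs in 16.1% of the 32851 promoter windows of the same length, so its presence is common. The STAT6 motif TTCNNNNGAA, which occurs in 5.85% of windows, and the related STAT motif TTCNNNGAA, which occurs in 7.02%, matched neither window on either strand. The table lists a second Tfrc start, whose window held none of the 3 motifs either. A match is a description of letters, and binding was not measured.

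At the 3' set, transferrin receptor was at 7.16, 7.09 and 7.17 on the cmB16F1 arrays and at 8.85, 8.47 and 8.63 on the combination arrays (replicates 1 to 3). All 3 combination arrays lay above all 3 cmB16F1 arrays. The dexa+IL4 arrays lay higher still, at 10.51, 10.62 and 10.33. The group means were 8.65 ± 0.19 (SD, n = 3) in the combination and 7.14 ± 0.05 in cmB16F1, a change of 1.51 on the log2 scale (SE 0.0987, limma with Benjamini-Hochberg adjusted p = 6.338e-06). The differences between arrays of equal number were 1.68, 1.39 and 1.46. The cmB16F1 values lay little above the highest bacterial controls of their arrays (6.90, 6.98 and 6.97), so the rise may be understated.

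The other transferrin receptor sets rose as well. The 5' set was at 6.47, 6.50 and 6.43 in cmB16F1 and at 7.42, 6.99 and 7.20 in the combination. The middle set was at 6.63, 6.55 and 6.54 in cmB16F1 and at 7.77, 7.34 and 7.40 in the combination. In both sets the groups did not overlap, and every cmB16F1 array lay within the range of the bacterial controls. The rise is therefore given as a bound, taken against the highest bacterial control of each cmB16F1 array. It was at least 1.20-fold at the 5' set and at least 1.47-fold at the middle set. The test was of the changes without the bound, 0.74 and 0.93 (limma adjusted p = 0.00189 and 4.161e-04). Combination replicate 2 of the 5' set, at 6.99, lay below the highest bacterial control on any array, 7.00. The 3 transferrin receptor sets passed the test under all 19 alternatives.

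The span between the 3' and 5' transferrin receptor sets was 1.42, 1.48 and 1.43 in the combination against 0.70, 0.59 and 0.73 in cmB16F1. The groups did not overlap, and the exact two-sided permutation p was 0.1, the smallest that 3 arrays against 3 allow. The 5' set was not told apart from background in cmB16F1, so the span there may be too small.

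**Figure D1:**
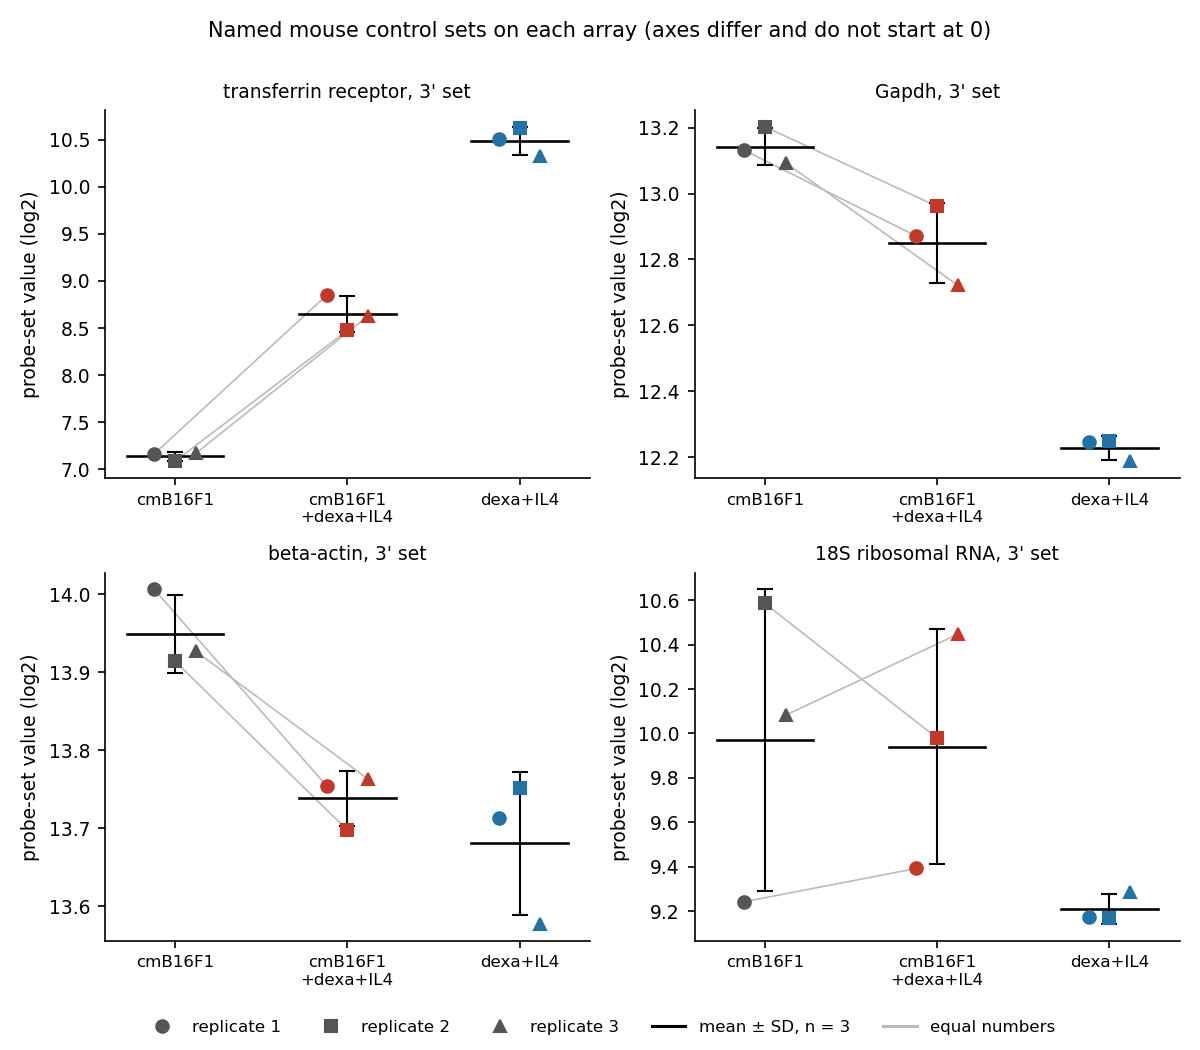
Probe-set values (log2) of 4 mouse control sets on each of the 9 arrays, with group means and SD (n = 3) and lines joining arrays of equal number. Transferrin receptor lies between 8.47 and 8.85 in the combination, above all cmB16F1 arrays at 7.09 to 7.17, while the 18S arrays of the groups overlap.

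Gapdh fell at its 3' set, from 13.13, 13.20 and 13.09 in cmB16F1 to 12.87, 12.96 and 12.72 in the combination. Every combination array lay below every cmB16F1 array, and the dexa+IL4 arrays, at 12.25, 12.25 and 12.19, lay lower still. The means were 12.85 ± 0.12 and 13.14 ± 0.06 (SD, n = 3), a change of -0.29 (SE 0.0640, limma adjusted p = 0.0124). Without cmB16F1 replicate 2 the call was lost (limma adjusted p = 0.0524), within a range over 19 alternatives from 7.231e-04 to 0.0524. The middle Gapdh set, at 12.75 ± 0.15 against 13.08 ± 0.09, changed by -0.34 (limma adjusted p = 0.0126) and passed under all 19 alternatives.

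The 5' Gapdh set gave a change of -0.32 that missed the threshold (limma adjusted p = 0.125). Its arrays overlapped, with 12.64, 12.37 and 12.21 in the combination and 12.94, 12.63 and 12.60 in cmB16F1. Yet each combination array lay below the cmB16F1 array of its own number, by 0.30, 0.26 and 0.39. A replicate block in a model of these 6 arrays brought the 5' set past the threshold (adjusted p = 0.00156, limma). So did the block in the 9-array model and leaving out combination replicate 1 (limma adjusted p = 0.00869 and 0.0361). The 19 alternatives spanned 5.911e-04 to 0.330, with the low end, also a pass, from scaling to the hybridization controls. The 3' minus 5' span of Gapdh was 0.45 ± 0.19 (SD, n = 3) in the combination and 0.42 ± 0.20 in cmB16F1 (exact permutation p = 0.7). By equal numbers it was larger in the combination in all 3 pairs, by 0.04, 0.02 and 0.02. The exact sign-flip test of the pairs, added after the data were seen, gave p = 0.25, the smallest that 3 pairs allow.

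Beta-actin fell at its 3' set, with 14.01, 13.91 and 13.93 in cmB16F1 and 13.75, 13.70 and 13.76 in the combination. The groups did not overlap. These values lie near the top of the scale, so the size of the change, -0.21 (limma adjusted p = 0.0237), is uncertain. Array weights ended the call, as did leaving out cmB16F1 replicate 1 or combination replicate 2, where the change was -0.20, -0.18 and -0.19 and the limma adjusted p was 0.0502, 0.0872 and 0.0837, within a range over 19 alternatives from 0.00168 to 0.0872. The beta-actin arrays of equal number differed by -0.25, -0.22 and -0.16.

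The 5' and middle beta-actin sets changed by -0.40 and -0.34 without passing (limma adjusted p = 0.143 and 0.0912). Both passed with the replicate block in the 6-array model (adjusted p = 0.00155 and 0.00198, limma). With the block in the 9-array model the middle set passed and the 5' set did not (adjusted p = 0.0299 and 0.0532, limma). The 19 alternatives spanned 1.629e-05 to 0.380 for the 5' set and 8.886e-05 to 0.266 for the middle set. Both low ends, also passes, came from scaling to the hybridization controls. All 6 same-number differences of these sets were negative, between -0.47 and -0.22. The 3' minus 5' span of beta-actin was 1.15 ± 0.22 (SD, n = 3) in the combination and 0.96 ± 0.21 in cmB16F1 (exact permutation p = 0.5). It too was larger in the combination in all 3 pairs, by 0.22, 0.26 and 0.08 (exact sign-flip p = 0.25). The part of RNA quality in the changes of these genes was not tested.

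Pyruvate carboxylase was measured close to the bacterial controls. Its 4 sets lay between 7.07 and 7.54 on these 6 arrays, and the changes ran from 0.02 to 0.08 with limma adjusted p between 0.269 and 0.850. The widest 95% confidence interval of the 4 ran from -0.02 to 0.17. At such low values a true change may be understated. The sign of all 4 changes turned with scaling to the hybridization controls.

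18S ribosomal RNA varied more between arrays of one group than between the groups. Its 3' set was at 9.24, 10.58 and 10.08 in cmB16F1 and at 9.39, 9.98 and 10.45 in the combination. Replicate 1 was lowest in both groups. The group change was -0.03 (limma adjusted p = 0.971), and its 95% confidence interval spanned -0.75 to 0.69. The dexa+IL4 arrays lay within 9.17 and 9.29. The 5' and middle 18S sets changed by 0.03 and 0.05 without passing either (limma adjusted p = 0.965 and 0.936). Replicate-number differences of the 5' set ran from -0.74 to 0.78.

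Short interspersed elements, which many transcripts carry, were probed by 3 sets named for B1 and B2. They changed by -0.05 to 0.07 and did not pass (limma adjusted p between 0.591 and 0.925). In the B1 set replicate 2 was highest in each of the 3 groups, at 10.91 in the combination, 10.94 in cmB16F1 and 10.95 in dexa+IL4. Replicates 1 and 3 kept no common order. The remaining B1 arrays lay between 10.26 and 10.62.

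**Figure D2:**
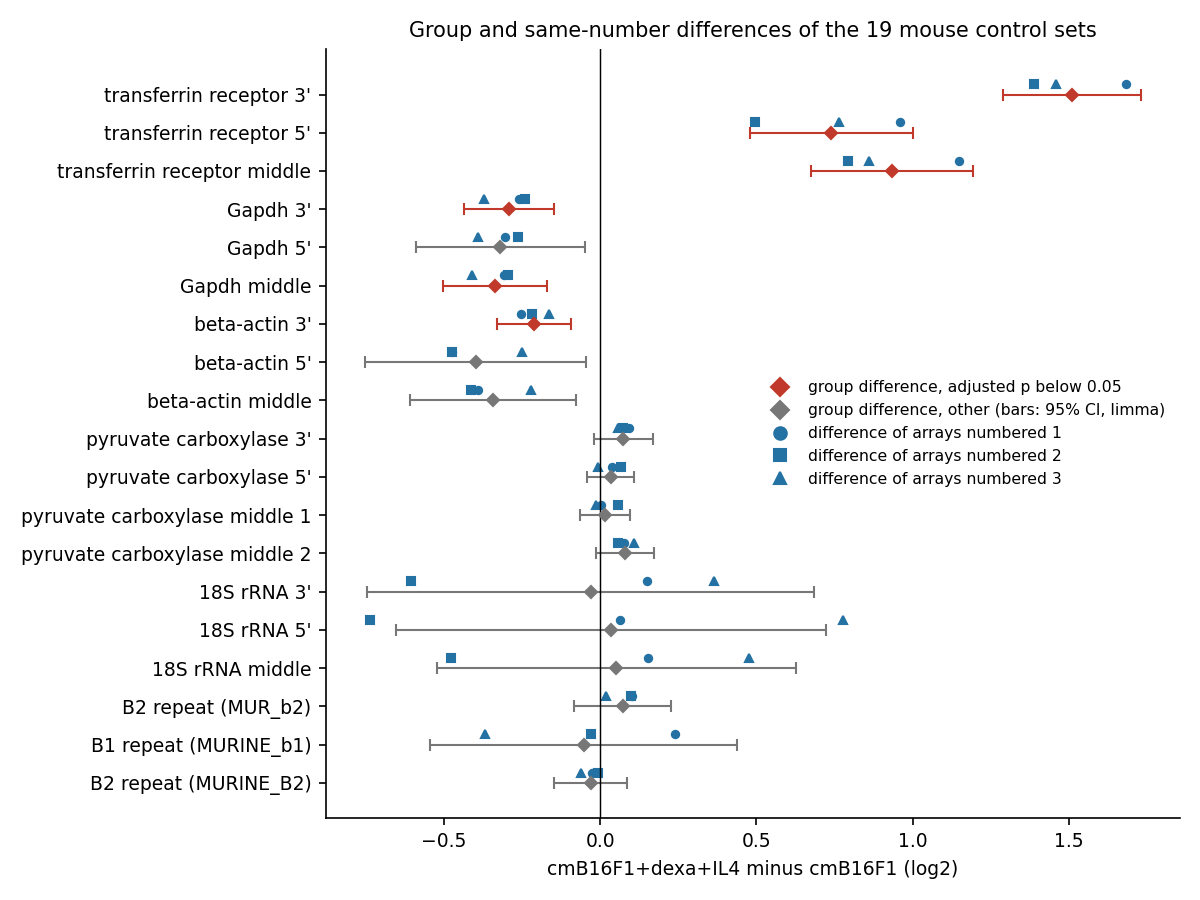
Difference between the combination and cmB16F1 (log2) for the 19 mouse control sets, with 95% confidence intervals from limma, and the 3 differences between arrays of equal number above each. All 9 transferrin receptor points lie to the right of 0 and all 18 points of Gapdh and beta-actin to the left, whereas the 18S points fall on both sides.

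Over all clusters, 2516 (14.1%) differed between the groups at an adjusted p below 0.05. The combination was higher in 1168 of these (6.56% of all clusters) and lower in 1348 (7.57%). The median change was 0.31 among the higher and -0.37 among the lower clusters. Changes of at least 2-fold were found for 108 clusters upward (0.606%) and 120 downward (0.674%). At least 4-fold, 34 clusters were higher and 14 lower, and at least 8-fold, 11 were higher and 2 lower. With arrays scaled to the hybridization controls these counts were 81 and 221 at 2-fold, 28 and 24 at 4-fold and 10 and 4 at 8-fold. Most clusters moved little, since 25% of them changed by less than -0.05, 25% by more than 0.07, and the median was 0.01. The split between higher and lower calls depended on the scaling: 46.4% of the called clusters were higher with the deposited values, and 11.7% after scaling to the hybridization controls, which were brighter in the combination (10.31, 10.55 and 10.31 against 10.02, 10.24 and 10.28; exact permutation p = 0.1). That scaling moved the median change to -0.20.

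The share of clusters called rose with their level. Among the 7042 clusters whose mean lay within the bacterial range, 3.75% were called. The share was 14.8% between 7.00 and 8, 25.4% between 8 and 10, 37.3% between 10 and 12 and 48.6% for the 109 clusters above 12. Clusters called higher outnumbered those called lower in the lowest class, by 171 to 93, and between 10 and 12, by 153 to 138. The reverse held in the other classes, with 366 to 477, 455 to 610 and 23 to 30.

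**Figure D3:**
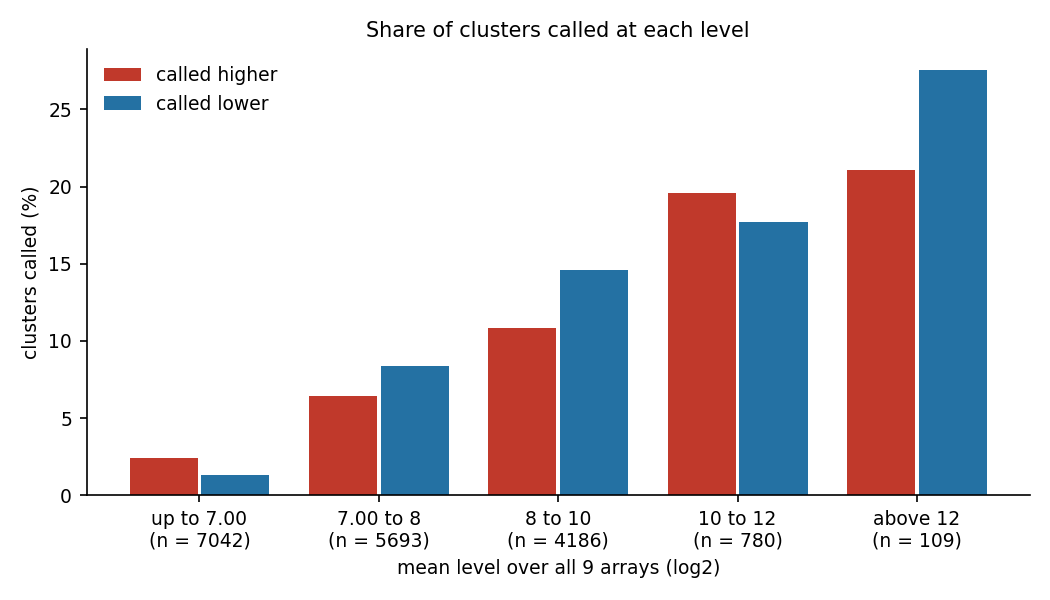
Percent of UniGene clusters called higher (red) or lower (blue) in the combination, by mean level over all 9 arrays (log2), with the number of clusters in each class. The shares rise from 2.43% and 1.32% in the lowest class to 21.1% and 27.5% in the highest.

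Some clusters crossed the edge of the bacterial range. In 101 clusters all cmB16F1 arrays lay within it and all combination arrays above it, and 82 of these were called higher, 13 of them at least 2-fold. The opposite crossing was seen in 51 clusters, of which 49 were called lower and 8 at least 2-fold lower. The direction of these calls was set by how the clusters were picked, so the counts are only a description. Over all clusters, 6.56% were called higher and 7.57% lower. A further 10240 clusters (57.5%) lay above the range on all 6 arrays, and they held 88 of the 2-fold rises and 105 of the 2-fold falls. The 5088 clusters within the range on all 6 arrays had 70 called higher and 30 lower, each by less than 2-fold. The remaining 2330 clusters had arrays on both sides of the edge in at least 1 group.

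The dexa+IL4 arrays entered the choice of the 2-fold clusters through the estimate of the spread. For the 57 clusters with a plus and a minus set, they also entered the mean that decided which set was kept. Their median over the 108 higher clusters was 9.45, beside 9.88 in the combination and 7.99 in cmB16F1. Over the 120 lower clusters it was 8.15, beside 8.25 in the combination and 9.62 in cmB16F1. For all clusters the medians of the 3 groups were 7.20, 7.23 and 7.22. The levels in the combination and cmB16F1 are set by the choice and are given only as a description.

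**Figure D4:**
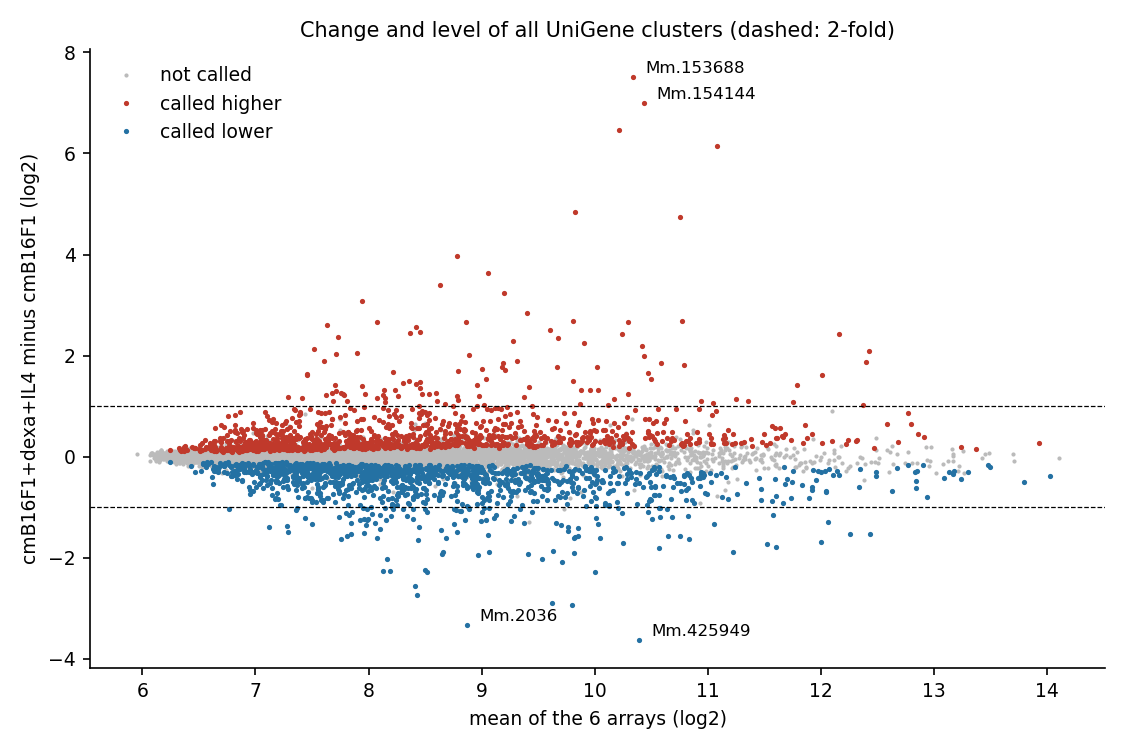
Change (combination minus cmB16F1, log2) against the mean of the 6 arrays (log2) for 17810 clusters; red and blue points passed the test as higher or lower, and dashed lines mark 2-fold. The points reach from -3.63 to 7.51.

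The largest changes are shown with values on every array, although the genes behind them are not named in the files. Cluster Mm.153688 was at 6.63, 6.60 and 6.53 in cmB16F1, within the bacterial range, and at 14.11, 14.14 and 14.02 in the combination, at the top of the scale. It was at least 141-fold higher in the combination, and passed the test (limma adjusted p = 6.619e-12). Its dexa+IL4 arrays, at 13.61, 13.80 and 13.48, were almost as bright. Cluster Mm.154144 stood at 6.80, 6.79 and 7.23 in cmB16F1 and at 13.94, 13.93 and 13.93 in the combination, a change of 6.99 (limma adjusted p = 3.596e-08) whose size is uncertain at both ends of the scale. Its dexa+IL4 arrays, at 10.72, 11.27 and 10.33, lay between the other groups.

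Cluster Mm.425949 fell most, from 12.85, 12.06 and 11.69 in cmB16F1 to 9.15, 8.43 and 8.14 in the combination. This is 12.3-fold lower (change -3.63, SE 0.293, limma adjusted p = 2.525e-05). The cmB16F1 arrays of this cluster spread over more than a 2-fold range, and the combination arrays kept the same order of replicate numbers, so that the same-number differences of -3.70, -3.63 and -3.55 were close. Cluster Mm.2036 followed, from 11.39, 10.36 and 9.86 to 7.53, 7.15 and 6.91, a change of -3.34 (SE 0.318, limma adjusted p = 7.160e-05). Its combination mean, 7.20, lay little above the bacterial controls, so its fall may be understated. In dexa+IL4 these clusters were at 7.63 ± 0.02 and 6.92 ± 0.18 (SD, n = 3). The 4 clusters were chosen for their size of change, and each passed under all 19 alternatives.

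**Figure D5:**
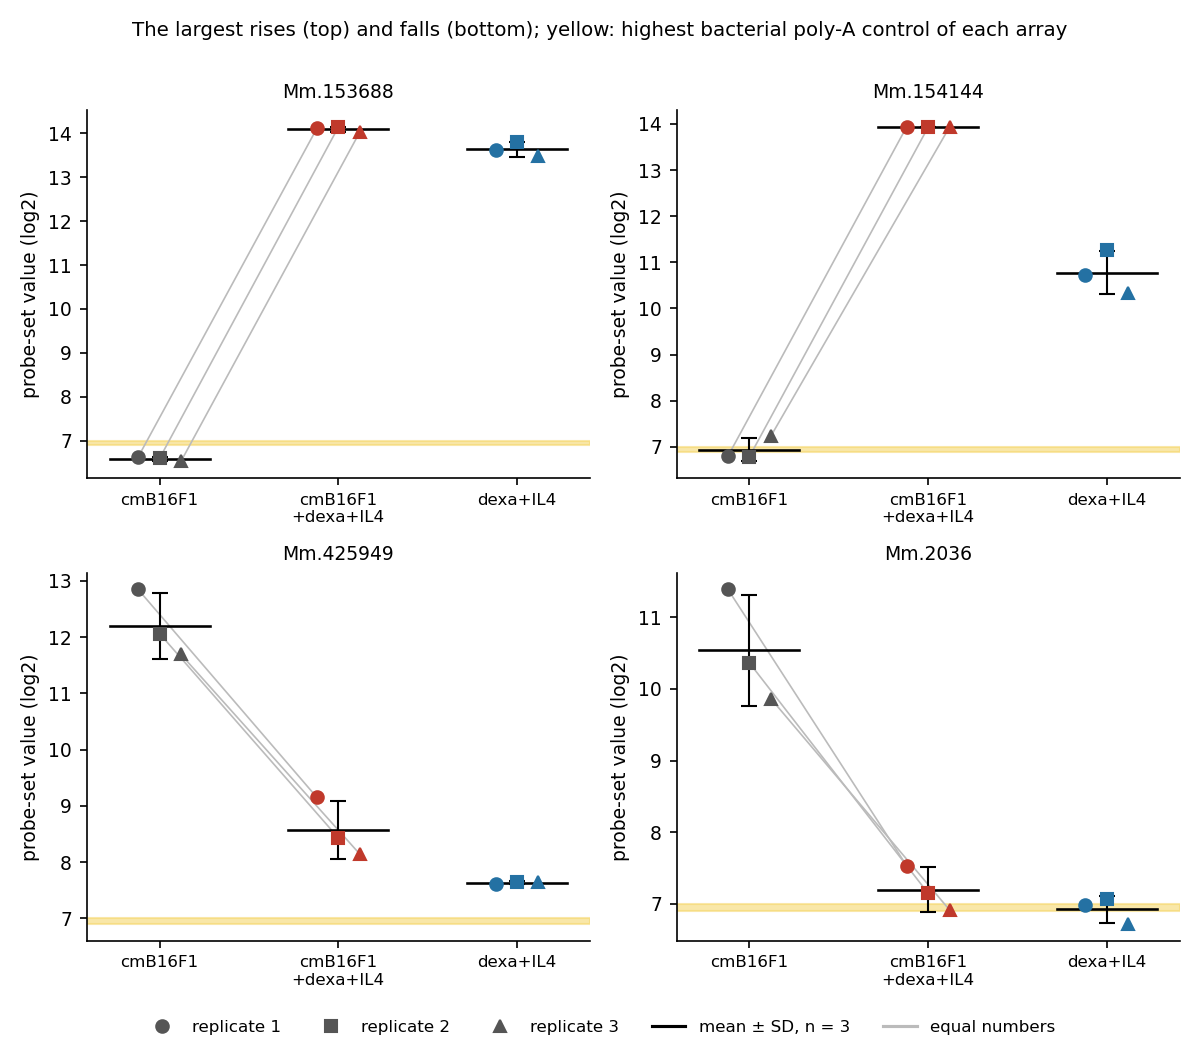
Values (log2) of the 2 clusters with the largest rises and the 2 with the largest falls on each array, with group means and SD (n = 3), lines joining arrays of equal number, and the highest bacterial poly-A controls as a yellow band. Groups without overlap were a condition of the choice. Arrays of equal number differ by -3.70, -3.63 and -3.55 in Mm.425949, and by -3.86, -3.22 and -2.95 in Mm.2036.

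The replicate numbers were used as a check, as arrays of equal number deviated together. Deviations from the group means correlated across clusters at 0.617, 0.565 and 0.662 for equal numbers and between -0.461 and -0.198 for unequal ones, where clusters are not independent replicates and deviations within 3 arrays sum to 0. The SD over clusters of the difference between a combination and a cmB16F1 array was 0.289 to 0.301 for equal numbers and 0.304 to 0.326 for unequal ones. All 3 same-number differences were positive in 5124 clusters (28.8%) and negative in 4080 (22.9%). They were at least 2-fold upward in each pair for 87 clusters and downward for 84. Single pairs held between 103 and 131 rises of that size and between 111 and 150 falls.

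Every cluster called higher or lower had 3 same-number differences in its direction. Groups were free of overlap in 1166 of the 1168 higher and in 1337 of the 1348 lower clusters, beside 28.5% of all clusters in either direction. The calls came from a test of the same arrays, which favours such clusters, so neither count is separate support. A model of these 6 arrays that held the replicate number as a block called 3677 clusters (20.6%), of which 1719 (9.65%) were higher and 1958 (11.0%) lower. These included 2468 of the 2516 called without it, all in the same direction.

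Plus and minus sets were both present for 57 clusters, and these give a view of the same cluster through other probes. The changes of the paired sets had the same sign in 38 of the 57. Many of these sets lay within or near the bacterial range and changed little, so a shared sign says little. In 9 clusters exactly 1 set passed the test (limma), the brighter set in 8 of them, and 48 clusters had no set that passed. The sets of a cluster differed in their change by a median of 0.07 and by at most 0.69.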

How the data were processed

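The authors deposited 1 log2 value per probe set and array, already on a common scale across arrays. That the scale is log2 follows from the range of the values. How background was corrected, how arrays were normalized and which array design was used is not given in the sources used. Per the labels' protocols, biotin-labelled cRNA from column-purified total RNA was hybridised to Affymetrix arrays, 1 sample to each. No step was added to the values.

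The table held 17931 sets, of which 17867 were cluster sets, 19 mouse controls, 18 hybridization controls and 27 bacterial poly-A controls. For 57 clusters with a plus and a minus set, the set with the higher mean over 9 arrays was kept. The test was limma's (version 3.58.1, R 4.3.3; lmFit, eBayes with trend) on all 9 arrays with group as the only term, with 6 residual and 3.85 prior degrees of freedom. P-values were adjusted by the Benjamini-Hochberg method over 17829 features, with a threshold of 0.05. The procedure was tested on simulated data with independent arrays and an equal spread in every group. That test does not cover arrays that deviate together by replicate number, or groups of unequal spread. Exact permutation tests used scipy 1.17.1. The number of arrays limits the precision.

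Equal replicate numbers were taken to pair the groups, since all 3 correlations of deviations exceeded 0.1. The labels do not state the pairing. Adjusted p-values with the block stand beside a result where they change its call.

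The rule for named genes asked for the 15 largest named rises and falls, 11 genes by symbol and members of 28 gene lists. No cluster had a name, so the lists and cell type markers were not run. In place of the rule, all mouse control sets and the 2 largest rises and falls are given, the latter with arrays that do not overlap and a higher mean above the median cluster. The comparison and lists were chosen with earlier results of these data known.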

Additional observations from a re-analysis of the deposited data

How the results depend on the processing

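The 4 counts of called clusters were recomputed under 19 alternatives. Scaling to the hybridization controls moved 2 of them by over 1.5 times: 263 clusters were higher in place of 1168, and 221 were at least 2-fold lower in place of 120. That scaling shifts all values of an array together, which shifted the median change by over 0.1. Its p-values and calls are not comparable with the others. For Mm.425949 the limma adjusted p was 4.659e-143 with it and 2.525e-05 in the main fit. The low end of every range given for Gapdh and beta-actin came from this scaling. The other 18 alternatives left all 4 counts within 1.5 times. With the replicate block in the 6-array model, 1719 clusters were higher and 1958 lower. The block changed no call among the named sets and clusters other than those of the 5' Gapdh and the 5' and middle beta-actin sets, and in the 9-array model the 5' beta-actin set did not pass (adjusted p = 0.0532, limma). With the 6 arrays alone and no block, 1852 clusters were called in all, beside 2516 with the less variable dexa+IL4 arrays in the fit. Leaving out 1 of the 9 arrays gave between 1937 and 2318 calls in all. Some changes near 0 turned their sign, none of them a call in either setting. With scaling to the hybridization controls, pyruvate carboxylase was at -0.14 (3'), -0.18 (5'), -0.20 and -0.13 (middle), 18S at -0.18 (5') and -0.16 (middle) and one B2 set at -0.14. With array weights the middle 18S set was at -0.012. Leaving out 1 array, the 3' 18S change lay between -0.39 and 0.28, the 5' between -0.34 and 0.28, the middle between -0.22 and 0.28, B1 between -0.23 and 0.12, the other B2 set between -0.074 and 0.015, and the first middle pyruvate carboxylase set between -0.0027 and 0.031. The cause was not tested. Values near the bacterial controls or near 14.2 may limit the size of a change that can be read.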
